A study of Xenopus laevis with 3 samples.

Results

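The genes described here encode the core of the cell division switch in the frog *Xenopus laevis*: the Cdc25 phosphatases (cdc25a, cdc25b and cdc25c), the cyclin-dependent kinases cdk1 and cdk2, the mitotic cyclins ccna1, ccna2, ccnb1 and ccnb2, and the Speedy gene spdyc. A probe set was a member when the platform annotation gave it a single gene symbol and that symbol, without its homeolog ending, was one of these 10 names, with ccnb1.2 counted under ccnb1. This gave 25 probe sets with 20 different symbols, out of 32539 probe sets of which 15495 carry a single symbol. In 22 of the 25 the signal reached 40 in at least 1 array, as it did in 23003 of all probe sets. *X. laevis* descends from a hybrid of related frogs, so most genes have a copy on the long (L) and one on the short (S) chromosome of a pair. These copies are called homeologs, and many of them have a probe set of their own.

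Embryos were injected into the animal pole with mRNA of a channel or with water, and RNA of 50 pooled embryos at stage 11, a gastrula stage, was measured on 1 Affymetrix array of *X. laevis* transcripts (Genome 2.0) for each condition. Water-injected embryos were the control. GlyR+IVM embryos carried the glycine-gated chloride channel with its opener ivermectin (IVM), and DN-KATP embryos carried a dominant negative KATP potassium channel subunit. Both channels depolarize the injected cells, and the study compared each with the control to find transcripts that respond to depolarization whatever the ion. The control got no mRNA, and among the frog embryos the paper names IVM only for GlyR. A response to injected mRNA can therefore not be told apart from one to depolarization in these arrays. The same holds for a response to IVM within GlyR+IVM. Injection took place at the 1-cell stage by the paper's methods, but at the 4-cell stage by GEO's text. Strain, sex and clutch of the embryos are not given in the sources used here.

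A cyclin-dependent kinase (Cdk) is usually activated by a cyclin bound to it. Inhibitory phosphates, placed by the kinases Wee1 and Myt1, hold it inactive until a Cdc25 phosphatase removes them. Cdk1 with B-type cyclins drives entry into mitosis, and Cdk2 with A-type and E-type cyclins acts in DNA replication. Eggs of *Xenopus* hold large stores of these proteins and mRNAs, which run the rapid cleavage divisions before zygotic transcription begins and the cell cycle slows.

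With 1 array per condition there is no spread between replicates, so no test, standard deviation or p-value can be given and each fold change is a value of these arrays alone. Both comparisons share the control array, so an error in its signal enters both ratios. A probe set was called higher when it reached a signal of 40 and at least doubled the control's, and lower when the control reached 40 and was at least double. Changes are given as log2 of the ratio of signals to the control, where 1 is a doubling and -1 a halving. Signals of different probe sets depend on their probes, so genes were not ranked by their signal. The RNA is of whole embryos, so fewer cells that carry a transcript and less of it per cell cannot be told apart.

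The median signal was between 92.7 and 101 in the 3 arrays. Of 20 gastrula genes listed to check the stage, all 17 found on the array reached 40, and none of their 34 probe sets was called. Their summed signals were 76325 in control, 76691 with GlyR+IVM and 82499 with DN-KATP. Single probe sets moved in both directions. For example, eomes.S had 296, 151 and 336, and ventx2.1.L had 4405, 6567 and 8011. The sums therefore do not show that the arrays matched closely in stage. Of 13 genes listed for differentiated later tissue, 11 were on the array and 4 reached 40. Their summed signal was 3818 in control, 9093 with GlyR+IVM and 5577 with DN-KATP. Most of each sum came from 2 probe sets of the actin gene actc1.L, with 939, 2361 and 1386 and with 2672, 6311 and 3847. Both lay far above 40 in the stage 11 control, so actc1.L did not mark later tissue alone here. The number of the 20 probe sets of these genes at 40 or more was 2, 6 and 4, with none listed at 0. Of the 20, 5 were called higher in GlyR+IVM and 1 of them, the globin gene hba3.L, in DN-KATP too. The part of this difference between the arrays in the values below was not tested.

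Most members of the Cdk switch lay close to the control, as most probe sets of the array did. Within 0.5 on the log2 scale were 72.7% of members with GlyR+IVM and 77.3% with DN-KATP, against 72.1% and 70.2% of all. The calls came from a single homeolog of each of 3 genes. The S copies of cdc25a and spdyc were higher in both depolarized arrays, and the S copy of ccna1 was lower in DN-KATP. Among the 22 member probe sets that reached 40, 2 were called higher in GlyR+IVM, where 4.83% of all probe sets were, and the same 2 in DN-KATP, where 5.49% were. The share of members was 9.09% in both. None was called lower in GlyR+IVM, against 2.86% of all, and 1 was called lower in DN-KATP (4.55%), against 2.58% of all. In both depolarized arrays together 2 members were higher, where 1.77% of all probe sets were, and none was lower, where 0.665% were. Counted by gene, 2 of 11 member genes had a probe set higher in both, with ccnb1 and ccnb1.2 taken as separate genes, against 1.89% of 7529 genes, and none had one lower in both, against 0.903%. These are counts of 1 or 2 probe sets, and 1 more or less would change each share widely. The members were chosen with earlier results of these data known. Their shares here and below are therefore no independent comparison with the array.

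**Figure D1:**
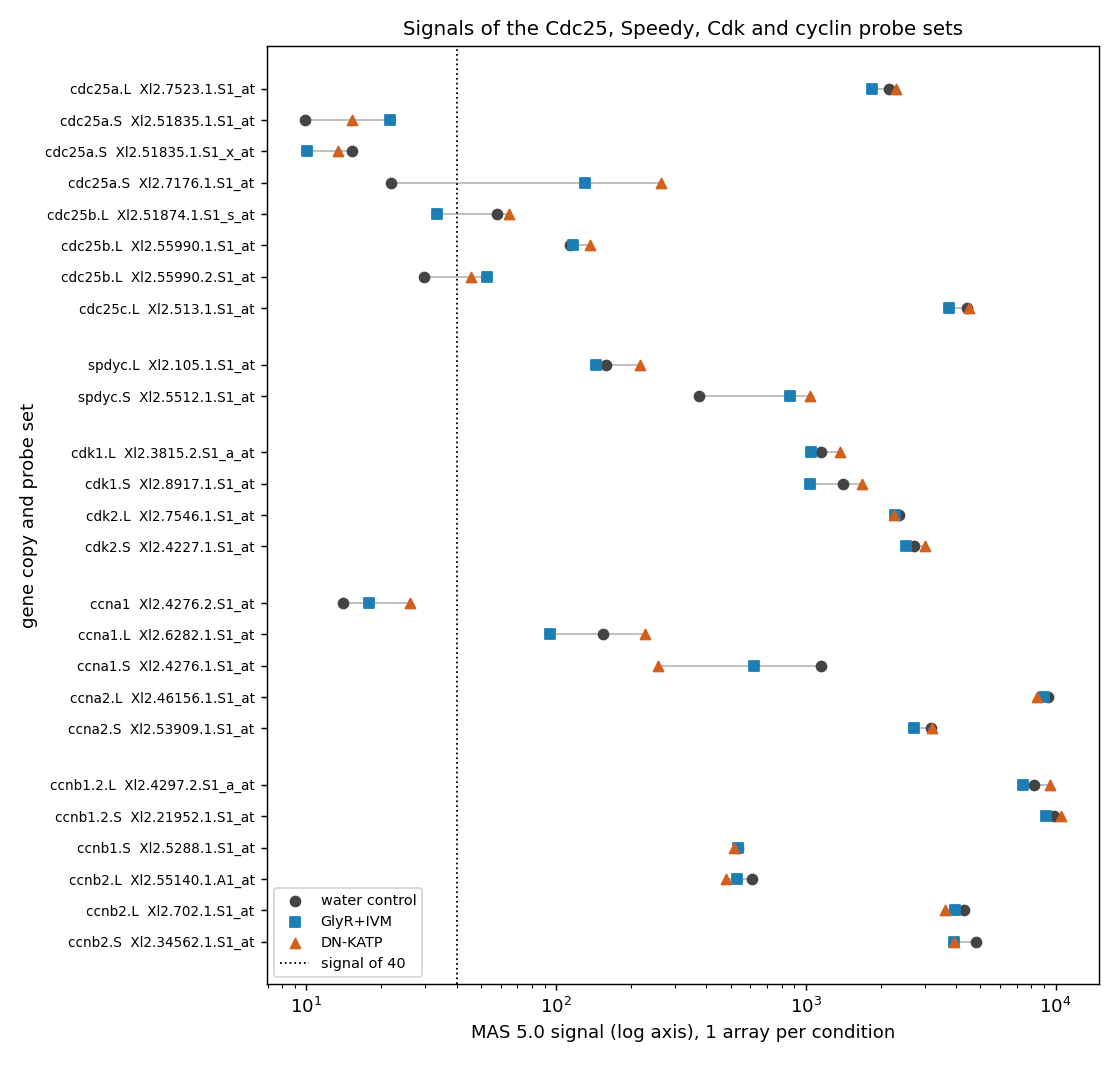
Signals of the 25 member probe sets on a log axis in the water control (circles), GlyR+IVM (squares) and DN-KATP (triangles), 1 array each, with gene copy and probe set named at the left and the signal of 40 as a dotted line. The probe sets of cdc25a.S (Xl2.7176.1.S1_at, from 21.7 to 131 and 263), spdyc.S and ccna1.S have the widest distances between arrays among those that reach 40, and 3 probe sets lie left of the line in every array.

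Cdc25A removes the inhibitory phosphates of Cdk2 and Cdk1 complexes and is itself destroyed when the checkpoint kinase Chk1 is active. Its copies were measured by 4 member probe sets. The L copy (Xl2.7523.1.S1_at) had a signal of 2154 in control, 1847 with GlyR+IVM and 2291 with DN-KATP, a log2 ratio of -0.22 and 0.09. The plot of signals shows these 3 values side by side, with the control between the depolarized arrays.

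The S copy (Xl2.7176.1.S1_at) had 21.7 in control, 131 with GlyR+IVM and 263 with DN-KATP, a log2 ratio of 2.59 and 3.59. Its control signal lay under 40, the level taken here for detection, and both depolarized signals lay above it. A ratio to so low a signal changes with any constant added: with 32 added to every signal the log2 ratios were 1.60 and 2.46, and the calls held. On the scale of log2 ratios the S copy exceeded the L copy by 2.81 in GlyR+IVM and by 3.51 in DN-KATP.

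The other probe sets of the S copy gave no value above 40. Xl2.51835.1.S1_at had 9.88 in control, 21.5 with GlyR+IVM and 15.3 with DN-KATP. Xl2.51835.1.S1_x_at, whose ending marks probes that can also bind other transcripts, had 15.3, 10.1 and 13.3. The former was highest in GlyR+IVM and the latter lowest there, so the increase of cdc25a.S rests on 1 of its 3 probe sets. A further probe set that the annotation assigns to both copies, and that is therefore no member, had 13.4, 12.5 and 9.26. It lay under 40 in every array and carries no value of either copy.

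Cdc25B helps to start mitosis by activating Cdk1 at the centrosomes, as known from mammalian cells. All of its 3 member probe sets belong to the L copy. Xl2.55990.1.S1_at had 113 in control, 117 with GlyR+IVM and 137 with DN-KATP. Xl2.55990.2.S1_at had 29.6, 52.8 and 45.7, a log2 ratio of 0.84 and 0.63. Xl2.51874.1.S1_s_at had 57.8, 33.3 and 64.8, a log2 ratio of -0.80 and 0.17. In GlyR+IVM the last was below and the others above the control, and the widest difference between them was 1.63 on the log2 scale. None was called, and the 3 do not give 1 direction for cdc25b.L.

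Cdc25C is the phosphatase that activates Cdk1 with cyclin B at the onset of mitosis. Its L copy (Xl2.513.1.S1_at) had 4402 in control, 3760 with GlyR+IVM and 4500 with DN-KATP, a log2 ratio of -0.23 and 0.03. No probe set with a single symbol stands for its S copy. The values of cdc25c.L and of cdc25a.L thus had the same order, lowest in GlyR+IVM and highest in DN-KATP.

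Speedy, also called Ringo, was found in *Xenopus* oocytes as a protein that is not a cyclin but binds and activates Cdks and can start meiotic maturation. The S copy of spdyc (Xl2.5512.1.S1_at) had 373 in control, 866 with GlyR+IVM and 1037 with DN-KATP, a log2 ratio of 1.22 and 1.48. The L copy (Xl2.105.1.S1_at) had 158, 144 and 218, a log2 ratio of -0.13 and 0.46. The S copy was called higher in both depolarized arrays, with a control signal well above 40, and the L copy in neither. On the log2 scale the S copy exceeded the L copy by 1.35 with GlyR+IVM and 1.01 with DN-KATP. With the arrays scaled to the hybridization spike-ins, which lowers all depolarized signals against the control, the ratios of spdyc.S were 0.78 and 0.99 and the call was lost.

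Cdk1 is the mitotic kinase that all of these regulators act on. Its L copy (Xl2.3815.2.S1_a_at) had 1146 in control, 1047 with GlyR+IVM and 1374 with DN-KATP. Its S copy (Xl2.8917.1.S1_at) had 1408, 1041 and 1682. Both copies were lowest in GlyR+IVM and highest in DN-KATP, with log2 ratios of -0.13 and 0.26 for L and -0.44 and 0.26 for S. None of these reached the 2-fold limit.

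Cdk2 acts at the start of DNA replication. Its L copy (Xl2.7546.1.S1_at) had 2358 in control, 2267 with GlyR+IVM and 2262 with DN-KATP, and its S copy (Xl2.4227.1.S1_at) had 2722, 2517 and 2996. The 4 log2 ratios of cdk2 lay between -0.11 and 0.14.

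Cyclin A1 is the A-type cyclin of eggs and early embryos of *Xenopus*, and cyclin A2 the form of later embryos and somatic cells. The S copy of ccna1 (Xl2.4276.1.S1_at) had 1152 in control, 620 with GlyR+IVM and 257 with DN-KATP, a log2 ratio of -0.89 and -2.16. It was lower than the control in both depolarized arrays and called lower in DN-KATP, while its GlyR+IVM signal lay short of the 2-fold limit. The L copy (Xl2.6282.1.S1_at) had 154, 94.3 and 226, a log2 ratio of -0.70 and 0.56. It was lowest in GlyR+IVM and highest in DN-KATP, so the copies lay on the same side of the control in GlyR+IVM and on opposite sides in DN-KATP. Their log2 ratios (S minus L) differed by -0.19 with GlyR+IVM and -2.72 with DN-KATP. With the arrays scaled to the spike-ins the ratio of ccna1.L in DN-KATP was 0.08. A probe set with the symbol ccna1 and no copy letter (Xl2.4276.2.S1_at) had 14.1, 17.9 and 26.1, under 40 in every array.

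Other maternal transcripts were set beside ccna1.S. Of 13 maternal and oocyte genes listed, 10 were on the array and 9 reached 40. Of their 11 probe sets 10 were at 40 or more in each array, with summed signals of 6744 in control, 7772 with GlyR+IVM and 5987 with DN-KATP and median log2 ratios of 0.19 and -0.14. The only call was gdf1.S, a maternal growth factor stored at the vegetal pole, with 730, 382 and 263. A further gene, zar1.S, an oocyte factor, had 418, 244 and 241, below the control in both and not called. Others of the list did not fall in both. For example, ddx25.L had 932, 1002 and 1071, above the control in both, and npm2.S had 1237, 2280 and 1039. Whether a change in maternal RNA has a part in the value of ccna1.S was not tested.

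Both copies of ccna2 were nearly level. The L copy (Xl2.46156.1.S1_at) had 9319 in control, 8979 with GlyR+IVM and 8397 with DN-KATP, and the S copy (Xl2.53909.1.S1_at) had 3174, 2722 and 3190. Their log2 ratios lay between -0.22 and 0.01. Neither copy was called in either comparison.

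B-type cyclins bind Cdk1, and their destruction ends mitosis. The annotation names ccnb1 and, next to it, ccnb1.2, a second B1-type gene. The S copy of ccnb1 (Xl2.5288.1.S1_at) had 538 in control, 534 with GlyR+IVM and 514 with DN-KATP. The L copy of ccnb1.2 (Xl2.4297.2.S1_a_at) had 8230, 7390 and 9478. The S copy of ccnb1.2 (Xl2.21952.1.S1_at) had 9874, 9120 and 10490. Both ccnb1.2 copies were lowest in GlyR+IVM and highest in DN-KATP, with log2 ratios of -0.16 and 0.20 for L and -0.11 and 0.09 for S, whereas ccnb1.S was lowest in DN-KATP by a small margin.

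Cyclin B2 had lower signals than the control in both depolarized arrays on each of its 3 probe sets, all short of 2-fold. For the L copy, Xl2.702.1.S1_at had 4299 in control, 3954 with GlyR+IVM and 3594 with DN-KATP, and Xl2.55140.1.A1_at had 607, 531 and 478. The S copy (Xl2.34562.1.S1_at) had 4798, 3909 and 3924. The 6 log2 ratios lay between -0.35 and -0.12, and stayed below 0 after quantile normalization. Scaling to a common median or to the spike-ins lowers all ratios to the control, so there they could only stay below 0. As deposited, 31.8% of the 22 members and 29.9% of all probe sets lay below the control in both depolarized arrays. Of the member genes with several probe sets at 40, ccnb2 alone had all of them below the control in both. With a common median this held for ccna2 too, with -0.11 and -0.28 for L and -0.28 and -0.12 for S. With the spike-ins it held for cdk1 and cdk2 as well, among others.

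**Figure D2:**
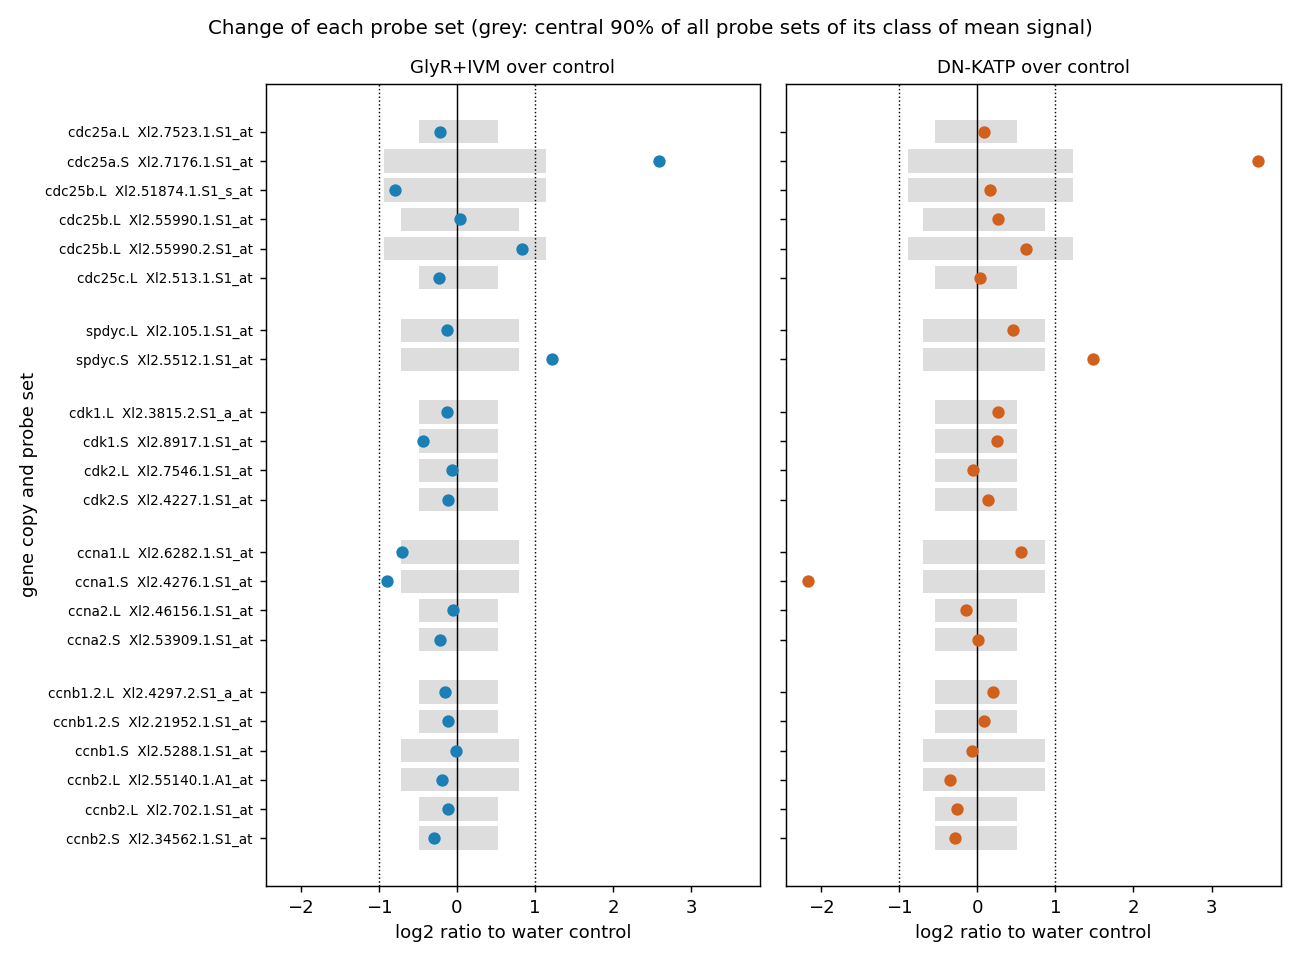
Log2 ratio to the water control of each of the 22 member probe sets that reached 40, for GlyR+IVM (left) and DN-KATP (right), with the 2-fold limits dotted. Grey bars span the central 90% of the probe sets in the same class of geometric mean signal over the 3 arrays, and cdc25a.S, spdyc.S and ccna1.S lie outside their bars, although cdc25a.S in GlyR+IVM lies inside the range of probe sets with a control under 40, which ends at 2.63.

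Since weak signals varied more, each member was also set beside the probe sets of its own class of signal, taken as the geometric mean of the 3 arrays so that no single array decides it. Of 5098 probe sets with a mean of at least 1000, the central 90% had log2 ratios from -0.49 to 0.52 in GlyR+IVM and from -0.54 to 0.51 in DN-KATP, and all 12 members of that class lay inside both ranges. Between 100 and 1000 the ranges were -0.72 to 0.80 and -0.70 to 0.87 over 10931 probe sets. Of the 7 members there, spdyc.S lay above them and ccna1.S below them in both comparisons. Between 40 and 100 the ranges were -0.93 to 1.14 and -0.89 to 1.23 over 4857 probe sets, and of the 3 members cdc25a.S lay above them in both. The plot of ratios shows these ranges as grey bars.

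With classes set by the control signal in place of the mean, cdc25a.S fell among 2277 probe sets with a control under 40 that passed 40 in another array and so tend to have ratios above 0. Their central 90% reached from -0.82 to 2.63 in GlyR+IVM, which holds the value of cdc25a.S, 2.59, and from -0.53 to 2.88 in DN-KATP, which it exceeded with 3.59. In these classes spdyc.S still lay above and ccna1.S below the range in both comparisons. The central 90% describes the array and is no spread between replicates.

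The 19 members other than cdc25a.S, spdyc.S and ccna1.S had log2 ratios from -0.80 to 0.84 in GlyR+IVM and from -0.35 to 0.63 in DN-KATP, and 16 of them lay within 0.5 of the control in both. Over all 22 members, 72.7% lay within 0.5 with GlyR+IVM and 77.3% with DN-KATP, against 72.1% and 70.2% of all probe sets. The median log2 ratio of the members was -0.13 with GlyR+IVM and 0.11 with DN-KATP, against 0.01 and 0.05 over all probe sets. Of the 22 members, 18 were below the control in GlyR+IVM, against 11150 of all 23003 probe sets. In DN-KATP 15 of the 22 were above it, against 12649 of 23003. A signal below the control in GlyR+IVM and above it in DN-KATP was found for 11 of the 22, against 18.5% of all probe sets, among them both copies of cdk1, of ccnb1.2 and the L copies of cdc25a, cdc25c and ccna1. That count was 12 after quantile normalization, 8 after scaling to a common median and 1 of 21 after scaling to the spike-ins, against 17.2%, 14.8% and 8.7% of all probe sets. Most of these differences are small, and their side of the control depends on how the arrays are scaled. DN-KATP was above GlyR+IVM for 15 members as deposited, 17 after quantile normalization, 14 with a common median and 14 of 21 with the spike-ins. Over all probe sets this held for 53.3% as deposited and for 46.3% to 50.2% under the scalings. Scaling to a common median or to the spike-ins moves both depolarized arrays against the control by similar amounts. It could therefore change their order little.

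The L and S copies could be compared in 9 pairs of probe sets, from 8 genes. The copies were counted as different when their log2 ratios differed by at least 1 in the same direction in both comparisons. This held for 2 of the 9 pairs, cdc25a and spdyc (22.2%), against 4.47% of 2486 pairs of L and S probe sets over the array. Members and this rule were chosen with earlier results of these data known, so the 2 shares are no independent comparison. Copies of ccna1 differed in DN-KATP only. The other 6 pairs, of cdk1, cdk2, ccna2, ccnb1.2 and ccnb2, differed by -0.30 to 0.20. Over the array, the size of the difference between L and S probe sets had a median of 0.31 in both comparisons, and 95% of pairs lay under 1.35 with GlyR+IVM and 1.40 with DN-KATP. The values of cdc25a rest on a control signal under 40. With every signal under 40 raised to 40, its copies differed by 1.93 and 2.63, and 95% of all pairs lay under 1.12 and 1.19. As deposited, the differences of spdyc, 1.348 and 1.014, both lay under the 95% limits of 1.351 and 1.400, the first only just. With signals under 40 raised to 40 the differences of spdyc were the same. The first then lay above its limit of 1.12 and the second under its limit of 1.19.

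Pairs of probe sets of the same copy give a measure of how far probes alone can differ, and such pairs over the array had the same spread. The size of their difference had a median of 0.31 with GlyR+IVM and 0.30 with DN-KATP over 4505 pairs, with 95% under 1.36 and 1.43, and 2.95% differed by at least 1 in the same direction in both comparisons. None of the 4 same-copy pairs among the members that reached 40 did, 3 of cdc25b.L and 1 of ccnb2.L. The pairs of cdc25a.S were left out by that floor. Its probe sets under 40 had log2 ratios of 1.12 and 0.63 (Xl2.51835.1.S1_at) and of -0.60 and -0.20 (Xl2.51835.1.S1_x_at). The called probe set had 2.59 and 3.59, so the probe sets of this copy lay far apart too. A difference between L and S probe sets can therefore not be told apart from one between probes in a single pair, and for cdc25a the other S probe sets lay below 40.

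**Figure D3:**
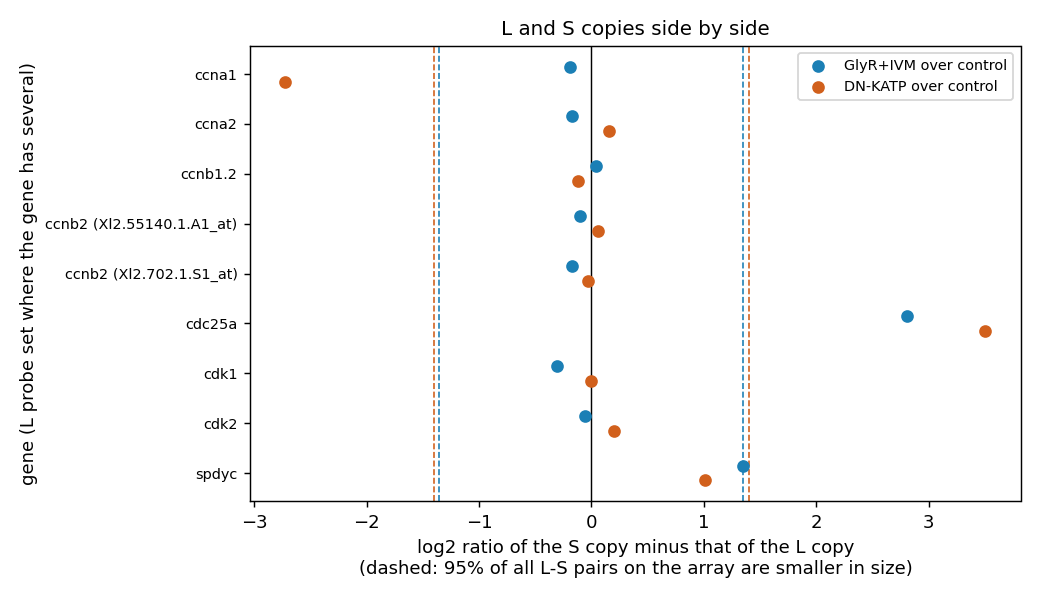
Log2 ratio of the S copy minus that of the L copy for the 9 member pairs in GlyR+IVM (blue) and DN-KATP (orange), with dashed lines at the size under which 95% of all L and S pairs on the array lie (1.35 and 1.40). The values of cdc25a, 2.81 and 3.51, lie beyond the lines and rest on a control signal of 21.7 for the S copy, ccna1 does so in DN-KATP only at -2.72, and the pairs of the other genes but spdyc lie near 0.

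The 5 probe sets with a single symbol whose pair of log2 ratios lay nearest to that of cdc25a.S were found over all probe sets that reached 40, by Euclidean distance over the 2 comparisons. They were tmem63a.S at a distance of 0.18, XB5953480.L at 0.18, khsrp.L at 0.36, junb.S at 0.46 and tp53i3.S at 0.58. Their signals were low in the control, and 4 of them stayed under 40 in GlyR+IVM too. For example, tmem63a.S, a membrane channel gene, had 3.17 in control, 18.8 with GlyR+IVM and 43.2 with DN-KATP. The signal of junb.S, which encodes a part of the transcription factor AP-1, was 4.34, 19.2 and 47.6. Only tp53i3.S, a gene named for its induction by p53 in mammals, was called higher in both, with 15.0, 78.3 and 124. All 5, like cdc25a.S, had a control signal under 40, so their ratios share the uncertainty of a weak control signal.

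Other regulators of the Cdks were taken from a list of 85 genes, of which 62 had a probe set that reached 40, with 111 probe sets in all. Of the 111, 4 were called higher and 4 lower in GlyR+IVM, and 2 higher and 2 lower in DN-KATP, shares of 3.6% and 1.8% against the array's 4.83%, 2.86%, 5.49% and 2.58%. Their median log2 ratio was -0.06 with GlyR+IVM and 0.03 with DN-KATP. In both depolarized arrays 1 of the 62 genes (1.61%) was higher and 2 (3.23%) were lower, against 1.89% and 0.903% of all genes. Of these genes none had copies or probe sets called in opposite directions.

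The gene higher in both was ccng1, an unusual cyclin that is a target of p53 in mammals. For its S copy, Xl2.55582.1.A1_at had 130 in control, 309 with GlyR+IVM and 407 with DN-KATP. The other probe set of ccng1.S above 40, Xl2.55726.1.A1_at, had 172, 548 and 579. The L copy had 1520, 3520 and 2738, called higher in GlyR+IVM and, with a log2 ratio of 0.85, not in DN-KATP. All 3 probe sets of ccng1 that reached 40 were thus above the control in both arrays, on both copies, though the L copy was called in GlyR+IVM only. The related ccng2 was above the control on both copies, with log2 ratios of 0.24 to 0.79 and no call.

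The genes lower in both encode parts of protein phosphatase PP2A, which with its B55 subunit removes the phosphates that Cdk1 places. The B55 gene ppp2r2b.L had 562 in control, 155 with GlyR+IVM and 199 with DN-KATP, a log2 ratio of -1.86 and -1.50. For the scaffold subunit, 1 of the probe sets of ppp2r1a.S (Xl2.14719.1.A1_x_at) had 81.6, 31.2 and 34.1 and was called lower in both. Its ending marks possible binding of other transcripts, and the call was lost with a floor of 100, a fold limit of 3 or 32 added to every signal. A probe set of ppp2r1a.S without that ending, Xl2.14719.1.A1_at, had 44.1, 18.0 and 26.0. It was called lower in GlyR+IVM only, with log2 ratios of -1.29 and -0.76. Another of ppp2r1a.S had 526, 505 and 404, and that of ppp2r1a.L 201, 188 and 199, neither of these called. The probe sets of ppp2r1a thus did not give 1 value for the gene. The B55 gene ppp2r2a.S, on 3 probe sets, had log2 ratios between -0.19 and 0.19.

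The kinases that place the phosphates Cdc25 removes had no call in both arrays. Of their 8 probe sets, wee2.S, an oocyte and embryo form of Wee1, had 407 in control, 202 with GlyR+IVM and 478 with DN-KATP and was called lower in GlyR+IVM. The L copy of wee1 had 1390, 1688 and 1888, a log2 ratio of 0.28 and 0.44. The 3 probe sets of the Myt1 gene pkmyt1.S lay between -0.28 and 0.07. No probe set was called in either array among the mitotic kinases (13 probe sets of plk1, aurka and others), the anaphase-promoting complex and its regulators (22), the G1 cyclins and Cdks (12), the Cks subunits (5), the oocyte maturation kinases (5), the Cdk-activating kinase (3) and the Cdk inhibitors (2). All 5 Cks probe sets lay below the control in both arrays, with medians of -0.34 and -0.25. The same held for 33.3% of the 111 regulator probe sets and 29.9% of all probe sets. The mitotic kinase mastl.L, which acts through Ensa to inhibit PP2A-B55, had 373, 514 and 667, a log2 ratio of 0.46 and 0.84. The checkpoint kinase chek1.S, which leads to the loss of Cdc25A protein, had 401, 364 and 267 on Xl2.406.1.S2_a_at and 110, 104 and 63.3 on Xl2.406.1.S1_a_at. Neither gene reached the 2-fold limit.

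**Figure D4:**
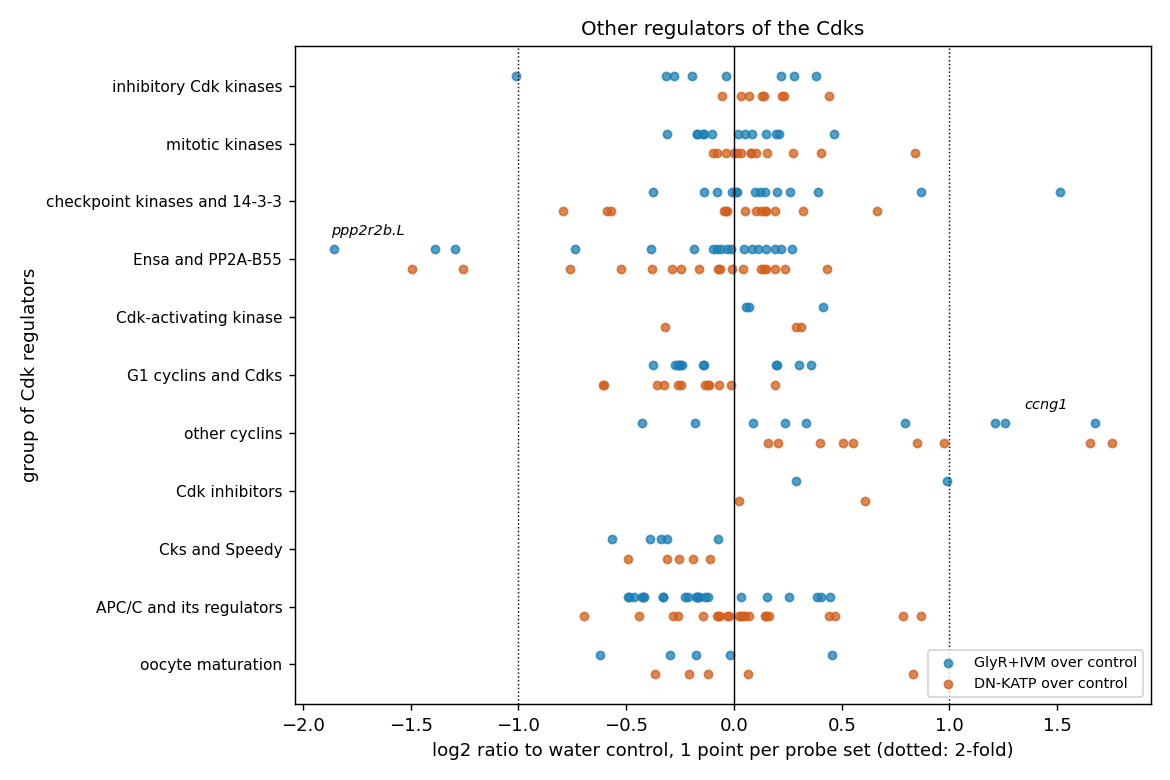
Log2 ratios to the water control of the 111 probe sets of other Cdk regulators that reached 40, by group, for GlyR+IVM (blue) and DN-KATP (orange), with the 2-fold limits dotted. The points of ccng1.S lie beyond the upper limit and those of ppp2r2b.L, at -1.86 and -1.50, beyond the lower one. Some points of other genes do so too, such as ywhaq at 1.51 and wee2.S at -1.01 in GlyR+IVM. The groups of mitotic kinases, G1 cyclins and Cks subunits lie wholly within the limits.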

How the data were processed

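The authors computed the deposited intensity values with MAS 5.0, which scales each array on its own, as the labels state. They are linear signals, and the present and absent calls the labels describe were not used here. A signal of at least 40 stood in for a present call. The build used to design the probes is not given in the sources used here. No further normalization was applied, all 3 value columns belong to a sample, and 96 control probe sets were left out. Ratios, counts and medians were computed with Python 3.11, numpy 2.4.6 and pandas 2.3.3. The rule was tested on simulated data, with changes only in probe sets whose control signal was at least 100. The simulated noise was the same at all signals, whereas weak signals varied more in these arrays. That test therefore does not cover a change from a weak control signal, such as that of cdc25a.S. Of the 25 member probe sets, 24 matched a RefSeq gene by gene ID. Members, gene lists and rules were chosen with earlier results of these data known. Named are all members, other Cdk regulators called in both comparisons, and the 5 probe sets nearest to cdc25a.S. Further genes are examples chosen after their values were seen. A gene's copies are those of the platform symbol. Calls and ratios were also computed with floors of 0, 20 and 100 for the signal, with fold limits of 1.5 and 3, after quantile normalization, after scaling to 18 hybridization spike-in probe sets or to a common median, with 32 added to every signal, and leaving out probe sets ending in _s_at, _x_at or _a_at. With 1 array per condition the precision is unknown.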

Additional observations from a re-analysis of the deposited data

Results flagged for a closer look

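The L copy of the embryonic A-type cyclin ccna1 was the only member at least 0.5 from the control on the log2 scale in opposite directions in the depolarized arrays, with -0.70 with GlyR+IVM and 0.56 with DN-KATP. Its signals were 154 in control, 94.3 with GlyR+IVM and 226 with DN-KATP. The difference between the treatments was not tested, since each has 1 array. The DN-KATP value fell under that limit of 0.5 in each alternative that changes it: 0.46 after quantile normalization, 0.43 with a common median, 0.08 with the spike-ins and 0.48 with 32 added.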

How the results depend on the processing

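The calls of cdc25a.S were kept under all 10 alternatives, but some of these could not have removed them. Lower floors and the fold limit of 1.5 only loosen the rule. The called probe set has none of the endings _s_at, _x_at or _a_at, so leaving those out could not affect it. The calls could have been lost with the higher floor, the fold limit of 3, the normalization and scalings, or 32 added. At a fold limit of 1.5, 3 members were higher in both depolarized arrays, with Xl2.55990.2.S1_at of cdc25b.L added. At that limit 1 member was lower in both (ccna1.S) and 3 were lower in GlyR+IVM. Among the latter was Xl2.51874.1.S1_s_at, so probe sets of cdc25b.L were called in opposite directions in GlyR+IVM. At a fold limit of 3, 1 member was higher in both, 1 with GlyR+IVM and 1 with DN-KATP, cdc25a.S each time, 1 homeolog pair differed and 1 other regulator gene was called in both. With scaling to the spike-ins, which moved the median of all probe sets to -0.44 and -0.45, 1 member was higher in both, 1 with GlyR+IVM and 1 with DN-KATP, 1 was lower in both (ccna1.S) and 3 in GlyR+IVM, and the members' median was -0.57 with GlyR+IVM and -0.39 with DN-KATP. Over the whole array 407 probe sets were higher and 153 lower in both as deposited, 290 and 221 after quantile normalization, 300 and 202 with a common median and 92 and 758 with the spike-ins. With a common median, the members' median in DN-KATP was -0.016. The difference between cdc25a.S and cdc25a.L was 2.64 and 3.28 after quantile normalization and 1.82 and 2.37 with 32 added. Of 174 values of single members under the alternatives that change them, 95 stayed within 0.1, 79 moved further, 19 changed sign, and no called value did. No paired analysis was possible because each condition has 1 array. The control signal of cdc25a.S, under 40, limits how well its fold change is known.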
